A study of Mus musculus with 32 samples.

Results

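Interferon-stimulated and antigen presentation genes, 50 in number, were followed in the striatum of B6 and B6.D2 congenic mice. They were chosen by their values in 1 library, that of B6.D2 congenic mouse 1, where many of them were high. All 50 were found among the 23420 genes counted, 49 under their own symbol and *Ifi27* under the symbol *Ifi27l1*. 4 of them, *Irf1*, *Igtp*, *Irgm2* and *Gm12250*, lie in the congenic segment of chromosome 11.

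The study mapped a chromosome 11 locus for reduced sensitivity to methamphetamine and sequenced striatal RNA to look for expression differences between the genotypes in mice that had received no drug. One group was 8 naive B6 mice (C57BL/6J littermate controls), and the other was 8 naive B6.D2 congenic mice of Line 4a, which carry 1 DBA/2J copy of a chromosome 11 segment on the B6 background. Each sample was RNA from striatal punches of both hemispheres of 1 mouse, pooled, and the labels give an age of about 50 days. The age range, the punch diameter and the RNA kit in the study's methods differ from those in the labels. The labels give neither home cage nor sex. PolyA RNA was sequenced, with a stranded kit according to the study's methods. Reads were counted without strand, so reads from overlapping genes on opposite strands cannot be told apart.

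Interferons are secreted proteins that cells release when they sense viral nucleic acid or other danger. Type I interferons and interferon gamma signal through JAK kinases to transcription factors, which turn on overlapping sets of genes for RNA sensing, antiviral defence, vacuole-targeting GTPases and presentation of peptides on MHC class I. In the brain these genes are usually expressed at low levels, and microglia, endothelial cells, astrocytes and neurons can all raise them.

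Reads counted on genes ranged from 19032826 to 33748353 in B6 mice (median 30222554.5) and from 24912413 to 32085311 in B6.D2 congenic mice (median 29352253.5). The lowest is B6 mouse 7, for which 1 of 2 lane files was available. Levels are given as CPM, read counts that edgeR scaled to a common library size with TMM factors. Library preparations that stood apart were those of B6.D2 congenic mouse 1 and B6 mouse 8. In mouse 1 of the congenic group (mouse 1 from here on), 27.3% of reads had more than 1 alignment, against 19.5% to 21.4% in the other mice. Reads outside genes made up 10.2% in mouse 1 and 11.3% in B6 mouse 8, and 14.5% to 15.9% in the remaining mice. Of 15589 genes tested, 4882 (31.3%) were highest of 16 mice in mouse 1 and 4314 (27.7%) were lowest there, whereas each other mouse was highest in 2.10% to 12.2% of genes. The values of mouse 1 also moved with exon length. Over 4 equal groups of genes from the shortest to the longest exons, the median log2 ratio of mouse 1 to the median of the other 15 mice was 0.43, 0.13, -0.09 and -0.36. For the members in those 4 groups (11, 15, 16 and 7 genes) it was 1.59, 2.30, 0.78 and 0.64, which carries no test since the members were chosen by these values. The part of exon length and of alignment in the values below was not tested.

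In mouse 1, 45 of the 50 members were the highest of all 16 mice (44 of the 49 tested, against 31.3% of genes tested), and *Stat2*, *Trim25*, *Eif2ak2*, *Samd9l* and *Herc6* were not. The median log2 ratio of mouse 1 to the median of the other 15 mice was 1.57 over the members, from -0.62 (*Eif2ak2*) to 4.46 (*Gbp2*). Over all genes tested the median was 0.00, with a 5th percentile of -1.16 and a 95th of 0.74. Members over 2 times the median of the others numbered 32 of 50 (31 of the 49 tested, against 1.26% of genes tested), and 7 were over 8 times. By role, the median log2 ratio was 3.34 for the interferon-inducible GTPases, 1.93 for antigen presentation, 1.83 for the antiviral effectors, 1.34 for ISG15 conjugation and 1.20 for the other induced genes. It was 0.72 for the PARP and DTX3L group, 0.52 for the sensors and 0.36 for signalling and transcription. These values chose the members, so they are a description of 1 mouse and carry no test. In bulk tissue, more cells of a type and more RNA per cell cannot be told apart.

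**Figure D1:**
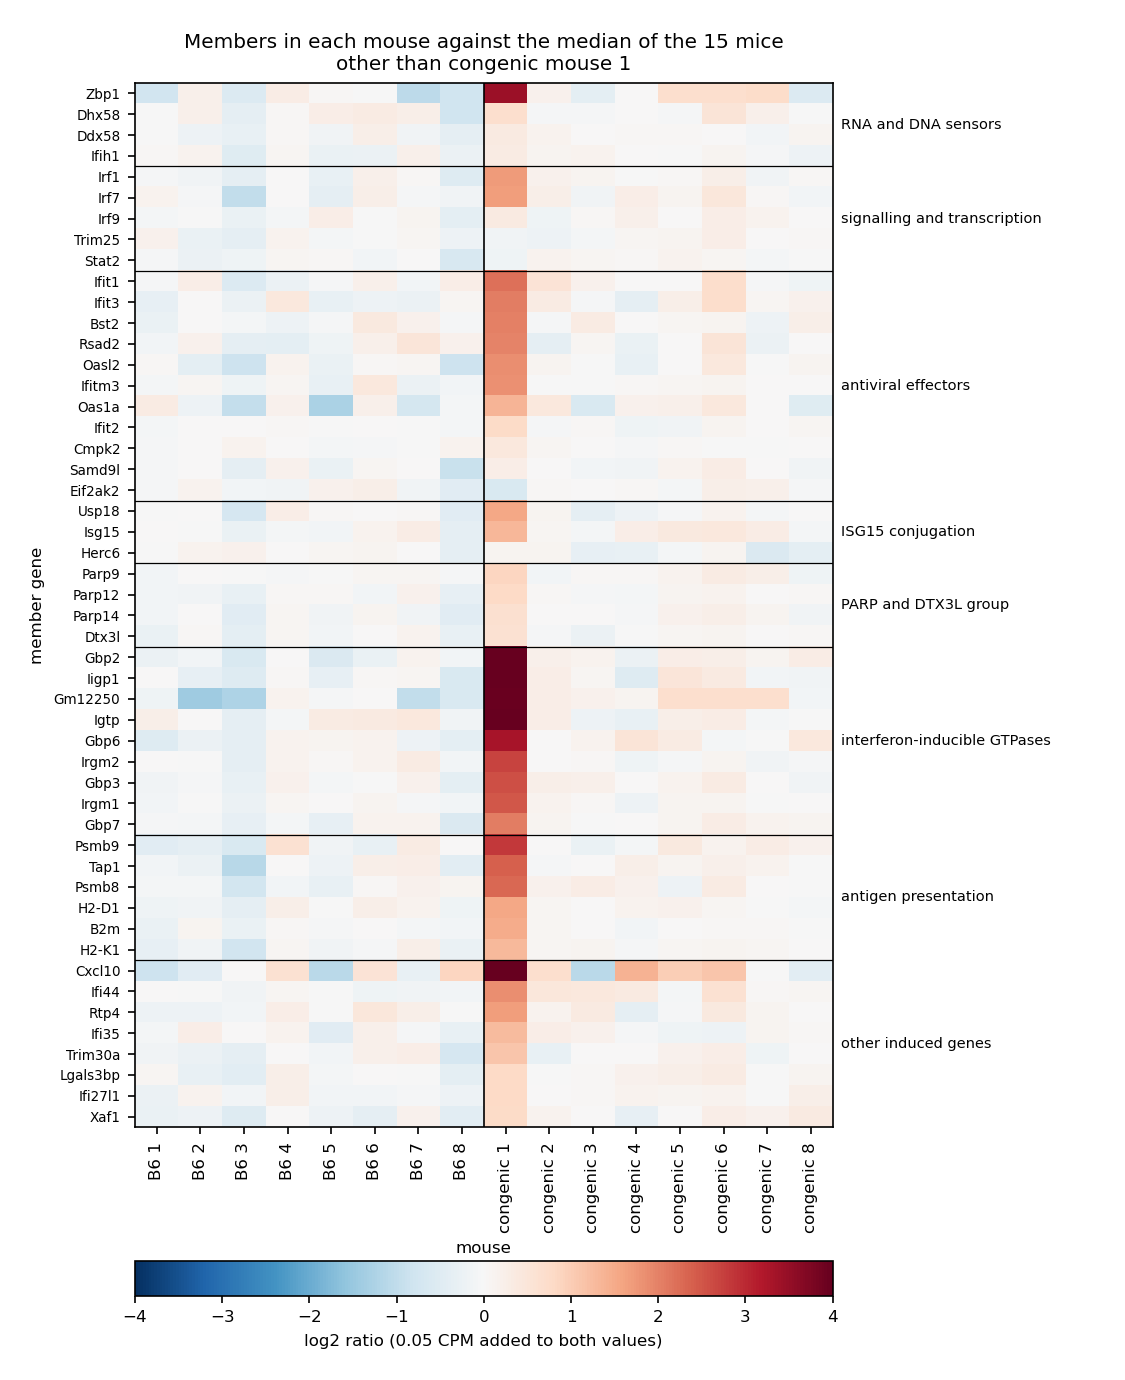
Heat map of the 50 members (vertical axis, by role) in each of the 16 mice (horizontal axis, 8 B6 then 8 B6.D2 congenic). Color is the log2 ratio to the median of the 15 mice other than congenic mouse 1. The column of congenic mouse 1 is high for most members, with the GTPases highest (median 3.34), and the remaining columns lie much nearer to 0.

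Marker lists of other cell types were summed in each mouse beside these values. The microglia list summed to 993 CPM in mouse 1, above the 732 to 868 CPM of the B6 mice and the 798 to 864 CPM of the other congenic mice, and 9 of its 13 genes were highest in mouse 1, as were 31.3% of all genes tested and 62.1% of those with the shortest exons. Its most abundant gene, *Csf1r*, was at 167 CPM in mouse 1 and at 149 to 207 CPM in the others, and *Cx3cr1* was at 70.9 CPM against 86.1 to 107 CPM. The complement gene *C1qa* was at 93.0 CPM in mouse 1 against 48.1 to 66.1 CPM. The list was thus high in sum, while some of its defining genes were within or under the range of the other mice.

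The endothelial list summed to 484 CPM in mouse 1, against 298 to 452 CPM in B6 mice and 389 to 451 CPM in the other congenic mice. Of its 9 genes only *Ly6a* and *Ly6c1* were highest in mouse 1, at 114 and 87.2 CPM, while *Slco1a4* was at 105 CPM against 74.8 to 123 CPM. *Flt1* (33.4 against 53.7 to 96.7 CPM) and *Tek* (17.1 against 17.8 to 27.5 CPM) were below all other mice, and the median log2 ratio over the 9 genes was -0.19, so the sum was high through the *Ly6* genes. Both *Ly6* genes can themselves be induced by interferon. The leukocyte list, of which 5 of 17 genes counted passed the filter on low counts, summed to 120 CPM (82.2 to 116 and 97.6 to 112 CPM in the others). It was led by *Cd4* at 101 CPM (66.2 to 103 CPM in the others), and *Lyz2* (11 against at most 8.64 CPM) and *Ccr2* (0.784 against at most 0.531 CPM) were highest in mouse 1. The other 2 genes tested were under the median of the other mice, *Ptprc* at 5.71 CPM against 7.07 and *Itgax* at 0.314 CPM against 0.382, and so were *Cd3d* and *Cd8a*, at 5 counts each. *Cd3e*, *Cd3g*, *Nkg7* and *Gzmb* were at 0 there and at 2 counts or fewer in every other mouse, so they could not show a change. The blood list summed to 58.7 CPM (19.7 to 30.5 and 18.5 to 33.1 CPM in the others), nearly all from *Beta-s* at 55.4 CPM, and 4 of its 6 genes counted were at 0 in all mice. The meningeal list summed to 415 CPM (207 to 331 and 256 to 315 CPM in the others), led by *Ptgds* at 328 CPM (145 to 245 CPM in the others). Of its 8 genes 4 were highest in mouse 1, and the collagens *Col1a1*, *Col3a1* and *Col1a2* were within the range of the other mice, with log2 ratios of -0.49, -0.20 and -0.05. In all 5 lists the sum was highest in mouse 1.

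Of the remaining lists, the astrocyte sum was lowest of all mice in mouse 1, at 5631 CPM against 5921 to 7008 CPM, through its most abundant gene *Slc1a2* (2826 against at least 3533 CPM). Its gene *Aqp4* was also below all other mice (145 against at least 149 CPM), and *Gfap* was under their median (108 against 122 CPM). Its genes *Gja1* (292 against at most 274 CPM), *S100b* (299 against at most 204 CPM) and *Aldoc* (1168 against at most 898 CPM) were above all other mice. The median log2 ratio over the 8 genes was 0.09. The sum of nuclear-retained RNAs, led by *Meg3*, was 8628 CPM in mouse 1 and 4870 CPM in B6 mouse 8, and the other congenic mice had 11047 to 12427 CPM. The striatal projection neuron sum (7349 CPM) was inside the B6 range of 5721 to 8439 CPM, while single genes went both ways: *Ppp1r1b*, *Tac1* and *Penk* were above all other mice and *Pde10a*, *Rgs9* and *Drd2* below. Mouse 1 was also inside the range of the other 15 mice for oligodendrocytes (14399 CPM, led by *Mbp*, with 4 of 7 genes highest there, *Mbp*, *Mog*, *Cnp* and *Cldn11*), reactive glia (52.9 CPM, led by *Vim*), choroid plexus (112 CPM, led by *Ttr*) and ependyma (18.6 CPM, led by *Foxj1*). No defining gene of these lists was at 0 in all mice. The part of these cell types in the members' values was not tested.

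**Figure D2:**
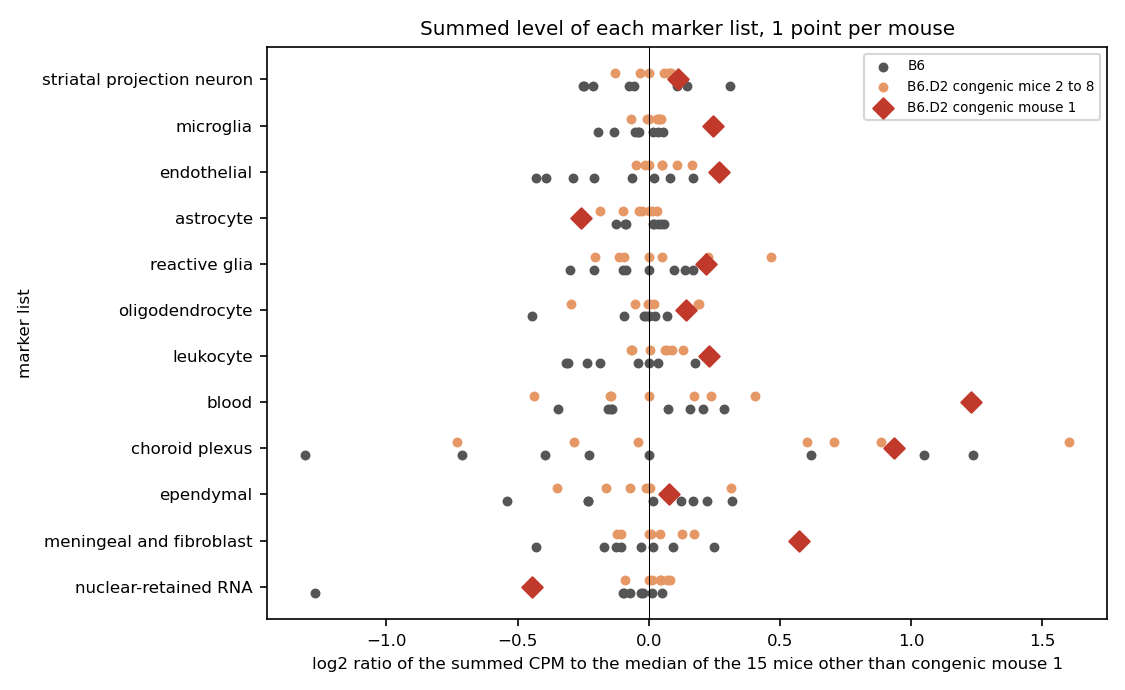
Summed level of each marker list (vertical axis), 1 point per mouse, as the log2 ratio of summed CPM to the median of the 15 mice other than congenic mouse 1 (horizontal axis). Gray points are B6 mice, orange points B6.D2 congenic mice 2 to 8 and the red diamond congenic mouse 1, which is highest for the blood (58.7 CPM), meningeal (415 CPM), endothelial (484 CPM), microglia (993 CPM) and leukocyte (120 CPM) lists.

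The genotype comparison asks how the members differ between B6.D2 congenic and B6 mice. With all 16 mice, edgeR's quasi-likelihood test called 1 of 15589 genes at an FDR of 5% (0.00641%), *Tnip1*, and none of the 49 members tested. Members higher at an unadjusted p under 0.05 numbered 24 of 49, where 4.86% of genes tested were, and 0 of 49 were lower, where 5.14% of genes were. Nothing is read from these counts, since mouse 1 is among the congenic mice there. DESeq2 gave 17 higher and 0 lower at an unadjusted p under 0.05, where at most 5.00% of genes tested were higher. At an FDR of 5% DESeq2 called 31 genes and no member. The likelihood ratio test of edgeR called fewer genes than DESeq2 but more than 1, and also no member. The median log2 fold change was 0.44 over the members, from -0.18 to 2.19, and 0.01 over all genes.

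Without mouse 1, in 8 B6 and 7 congenic mice, the median log2 fold change of the members was 0.14 (from -0.22 for *Herc6* to 0.86 for *Gm12250*), beside -0.00 over all genes tested. A log2 fold change over 0.5 was seen in 2 of 49 members. In the same comparison 9 of 9 endothelial marker genes had a log2 fold change above 0 (median 0.17), as had 49.6% of genes tested. The median was 0.03 for the microglia list, 0.14 for leukocytes, 0.25 for choroid plexus and -0.33 for ependyma. At an unadjusted p under 0.05, 3 of 9 endothelial, 2 of 13 microglia and 2 of 5 leukocyte genes were higher (5.82% of genes). In these lists 0 were lower. Their part in the members' difference was not tested. No member passed an FDR of 5% in edgeR's quasi-likelihood test, which called 4 of 15624 genes (0.0256%), and the lowest FDR of a member was 0.227 (*Gm12250*). DESeq2 called 82 genes and no member. The likelihood ratio test of edgeR called nearly as many genes as DESeq2, of which 1 was a member, *Gm12250*. At an unadjusted p under 0.05, 11 of 49 members were higher in congenic mice, where 5.82% of genes tested were, and 1 (*Herc6*) was lower, where 7.54% of genes were. DESeq2 gave 11 (5.70% of genes higher) and 1. The count of lower members fell from 1 to 0 in 12 of 26 settings.

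The log2 fold change was above 0 for 44 of 49 members, where 49.6% of genes tested were, and the exceptions were *Rsad2*, *Cmpk2*, *Herc6*, *Igtp* and *Irgm2*. The members vary together from mouse to mouse, so these 44 are not 44 separate observations. No member had all 7 congenic mice above every B6 mouse, where 0.0576% of genes tested did. Within the mice run on lanes 5 and 6 (4 B6, 3 congenic) the median log2 fold change of the members was 0.11 and 3 members were higher at an unadjusted p under 0.05 (2.14% of genes tested). Within those on lanes 7 and 8 (4 and 4) the values were 0.13 and 7 members (4.35% of genes). Leaving out B6 mouse 4 gave 18 members (7.65% of genes), B6 mouse 3 gave 7 (4.29%) and congenic mouse 6 gave 6 (4.43%).

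**Figure D3:**
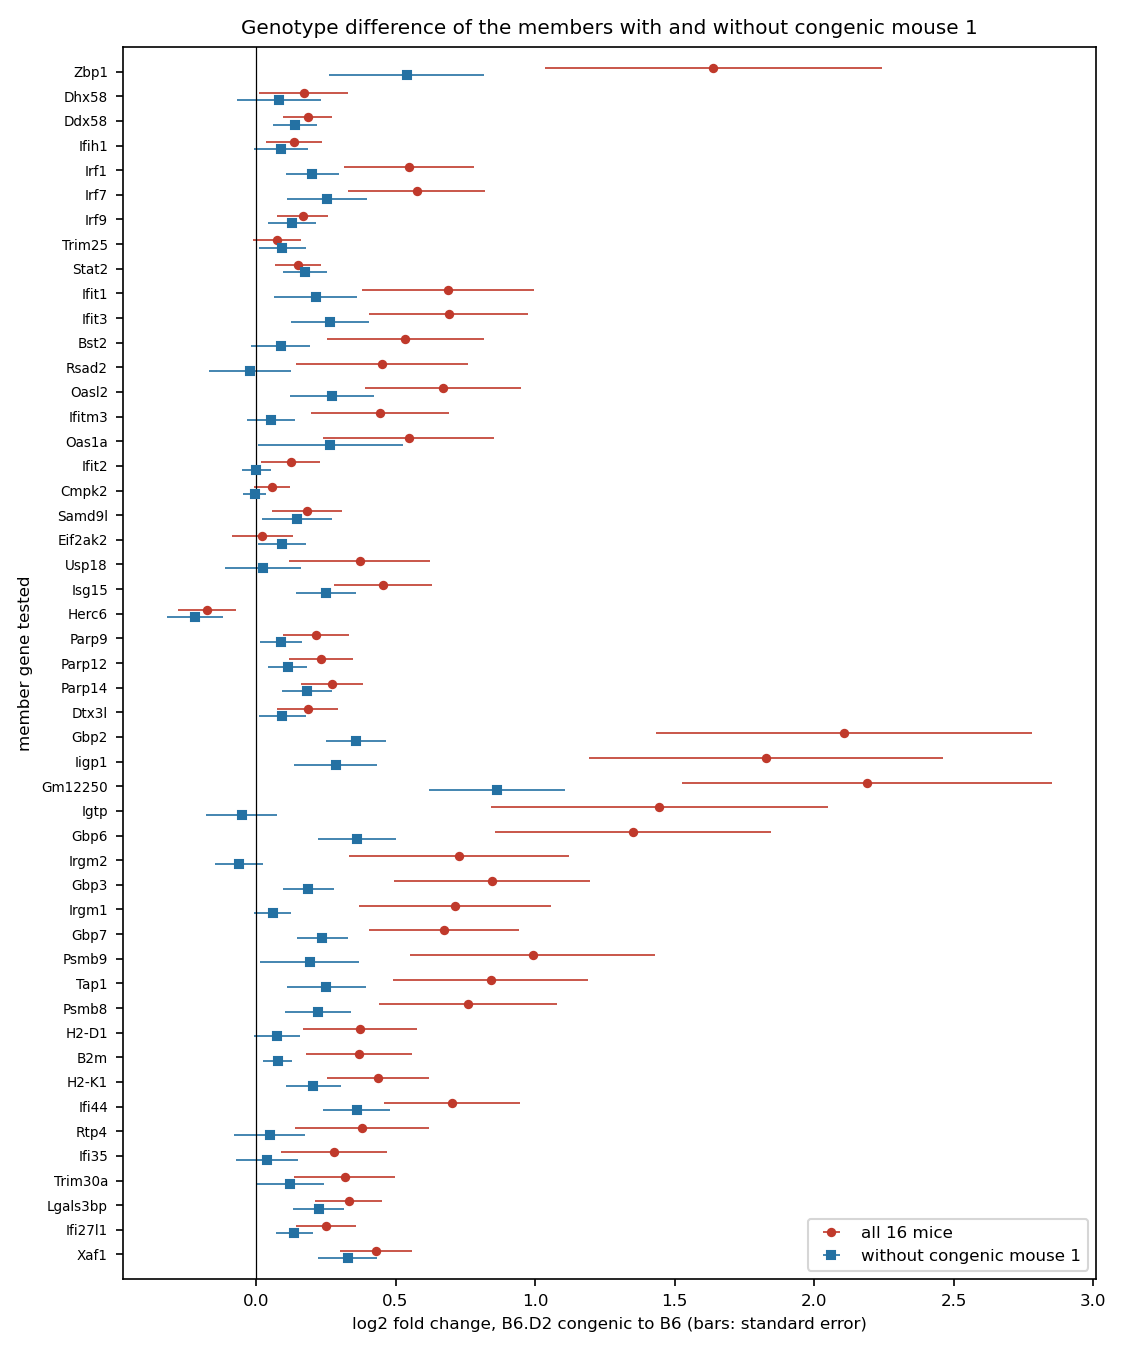
Log2 fold change of B6.D2 congenic to B6 mice (horizontal axis) for each member tested (vertical axis). Red circles are the fit of all 16 mice and blue squares the fit without congenic mouse 1, and bars are standard errors. The members' median is 0.44 with all mice and 0.14 without congenic mouse 1.

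The level of the members in each mouse was summarized as their median log2 ratio to the median of the other 15 mice. It ran from -0.38 to 0.07 in the B6 mice (median -0.09), from -0.04 to 0.26 in congenic mice 2 to 8 (median 0.03), and was 1.55 in mouse 1. The lowest were B6 mouse 3 at -0.38 and B6 mouse 8 at -0.34, and the highest after mouse 1 was congenic mouse 6 at 0.26. Both groups overlapped between -0.04 and 0.07. Leaving mouse 1 aside, congenic mouse 6 was the highest of 15 mice in 20 of the 50 members (in 4.79% of genes tested). B6 mouse 3 was the lowest in 20 (8.83% of genes), and B6 mouse 8 in 13, with 22.8% of genes. Over all genes B6 mouse 8 stood apart in both directions, as it was also the highest of 15 in 22.2% of genes, but in 0 members.

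**Figure D4:**
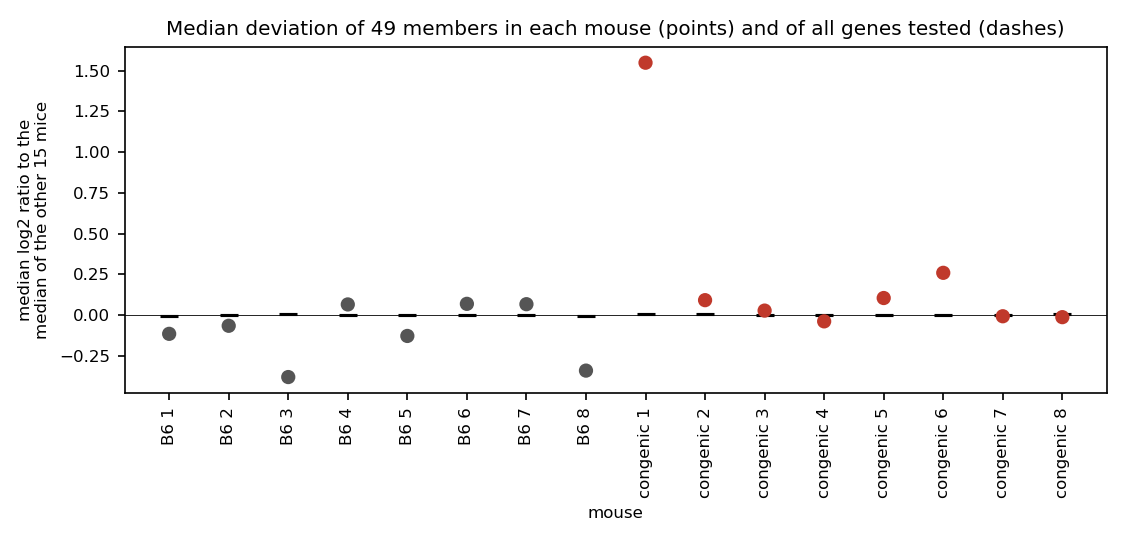
Median log2 ratio of the 49 members tested to the median of the other 15 mice (vertical axis, points) in each mouse (horizontal axis), with the same median over all genes tested as a dash. Congenic mouse 1 stands at 1.55 and all other mice lie between -0.38 and 0.26, while the dashes stay near 0.

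Levels between genes were compared per kilobase of exon. At the median of the 15 mice other than mouse 1, *B2m* was the most abundant member at 83.9 CPM per kb, followed by *Ifi27l1* at 13.7, *Ifitm3* at 10.6, *H2-K1* at 10.2, *Cmpk2* at 9.77 and *Stat2* at 7.99 CPM per kb. The lowest were *Zbp1* at 0.108 and *Cxcl10* at 0.0930 CPM per kb. In mouse 1 the order was *B2m* at 234 CPM per kb, then *Gbp2* at 38.7, *Ifitm3* at 37.6 and *Igtp* at 26.7 CPM per kb. Hence *Gbp2* and *Igtp*, at 1.76 and 1.66 CPM per kb in the other mice, moved past nearly all members there.

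The RNA and DNA sensors start the response. *Ddx58* (RIG-I), which binds viral RNA with a free triphosphate end, was at 5.60 to 8.51 CPM in B6 mice (median 6.46), 6.66 to 7.99 CPM in congenic mice 2 to 8 (median 7.44) and 9.22 CPM in mouse 1. Its B6 and congenic mice overlapped, although all 7 congenic mice lay above the B6 median, and the log2 fold change without mouse 1 was 0.14 (SE 0.08, edgeR unadjusted p = 0.0955, FDR 0.436). *Ifih1* (MDA5), a sensor of long double-stranded RNA, was at 3.75 to 6.04 CPM (median 4.94) in B6 mice and 4.57 to 5.78 CPM (median 5.24) in congenic mice 2 to 8. With 6.59 CPM mouse 1 was only a little above this shared range. *Dhx58* (LGP2), which regulates both, was at 1.05 to 2.32 CPM (median 1.99) and 1.76 to 2.65 CPM (median 1.82), with 2.95 CPM in mouse 1. The groups overlapped again, with B6 mouse 8 lowest and congenic mouse 6 highest of the 15.

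Of the sensors, *Zbp1*, which binds Z-form nucleic acids, was farthest from the other mice in mouse 1, at 4.61 CPM or 12.1 times their median. It was at 0.157 to 0.485 CPM in B6 mice and 0.247 to 0.662 CPM in congenic mice 2 to 8, from only 3 to 19 counts per mouse, and 147 counts in mouse 1. Without mouse 1 no sensor was at an unadjusted p under 0.05 in edgeR, and their log2 fold changes were between 0.08 and 0.54.

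The signalling and transcription members carry the interferon signal to the nucleus. In mouse 1 they did not move together, as *Irf1* and *Irf7* were high while *Stat2* and *Trim25* were not. The promoters of members of all roles were searched on both strands. One motif was the core of the interferon-stimulated response element, GAAANNGAAA (TTTCNNTTTC on the other strand). The other was the gamma-activated site, TTCNNNGAA, which is its own reverse complement. N is any letter, and neither motif can lie wholly within the other, though they can share letters. The windows run from 250 bases before to 50 bases after a transcription start (RefSeq, GRCm38.p6), and 41 of the 50 members have one. The core was found in 21 of these 41 genes (51.2%) and the gamma-activated site in 12 (29.3%), beside 3.99% and 9.55% of 27025 genes in the table. Over windows the shares were 46.8% and 25.5% for the members (47 windows) and 3.44% and 8.30% for all 32851. By role, the core was in 7 of 7 GTPases with a window, 7 of 11 antiviral effectors, 2 of 2 sensors, 2 of 6 other induced genes, 1 of 2 in ISG15 conjugation, 1 of 5 in signalling, 1 of 6 in antigen presentation and 0 of 2 in the PARP group. A match is a description of letters and not of a bound site. The members were listed as interferon-stimulated and antigen presentation genes, so their larger shares go with the choice of list. These shares carry no test and say nothing about mouse 1.

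*Stat2*, a transcription factor of type I signalling, was at 22.7 to 36.9 CPM in B6 mice (median 33.5), 33.5 to 38.9 CPM in congenic mice 2 to 8 (median 37.0) and 31.1 CPM in mouse 1. Mouse 1 was thus not high, with 12 mice above it, while all other congenic mice were above the B6 median and 4 above every B6 mouse. Without mouse 1 the log2 fold change was 0.18 (SE 0.08, edgeR unadjusted p = 0.0372, FDR 0.349), so the difference did not pass the correction. Its promoter is printed as that of a member with the core that was under the median of the others in mouse 1. The window is chr10:128270248-128270547 on the plus strand, and capitals mark the core.
Stat2: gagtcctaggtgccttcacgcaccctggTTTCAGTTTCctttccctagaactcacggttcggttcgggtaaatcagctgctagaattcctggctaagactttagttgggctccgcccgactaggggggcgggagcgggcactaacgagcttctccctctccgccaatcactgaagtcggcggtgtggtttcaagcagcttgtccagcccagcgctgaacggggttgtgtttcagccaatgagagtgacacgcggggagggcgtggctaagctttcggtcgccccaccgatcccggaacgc

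*Irf1*, a transcription factor of the interferon gamma response that lies in the congenic segment (chr11:53770014-53778374), was at 4.16 to 6.76 CPM in B6 mice (median 5.52), 5.40 to 7.03 CPM in congenic mice 2 to 8 (median 6.09) and 19.5 CPM in mouse 1. Mouse 1 was alone and high, and the other mice of both genotypes overlapped, with 1 congenic mouse above every B6 mouse. The log2 fold change was 0.55 (SE 0.23) with all 16 mice and 0.20 (SE 0.09) without mouse 1 (edgeR unadjusted p = 0.0457, FDR 0.363). In an exact two-sided permutation test of log2 CPM without mouse 1, p was 0.0553 (8 against 7 mice, smallest possible p 0.0001554). Reads on the 135 bases of exon it shares with the antisense gene *Gm17334* could come from either gene. Neither of its 2 windows holds the core, and the one printed, chr11:53769764-53770063 on the plus strand, holds a gamma-activated site in capitals, with its first letter at -90 from the start (the start being 0).
Irf1: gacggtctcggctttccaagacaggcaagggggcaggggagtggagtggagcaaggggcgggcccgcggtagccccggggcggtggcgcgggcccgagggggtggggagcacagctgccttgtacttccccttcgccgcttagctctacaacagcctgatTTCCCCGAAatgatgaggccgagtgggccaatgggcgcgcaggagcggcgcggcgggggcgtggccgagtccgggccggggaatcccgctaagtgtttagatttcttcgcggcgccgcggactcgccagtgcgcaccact

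*Irf9*, which binds DNA in type I signalling, was at 10.2 to 16.1 CPM in B6 mice (median 13) and 11.8 to 16.1 CPM in congenic mice 2 to 8 (median 14). Mouse 1 at 17.3 CPM was the highest, by little. *Trim25*, the ubiquitin ligase that activates RIG-I, was at 9.29 to 13.4 CPM (median 11.4) and 10.4 to 14.3 CPM (median 12.3), and mouse 1 was inside both ranges at 10.8 CPM. *Irf7*, which amplifies type I interferon production, was at 9.03 CPM in mouse 1 and at 3.85 CPM or less in all other mice. These 3 genes had log2 fold changes without mouse 1 of 0.13, 0.10 and 0.26, none at an unadjusted p under 0.05.

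The antiviral effectors act on viral RNA, entry and nucleotide pools. *Cmpk2*, a mitochondrial nucleotide kinase, was at 29.5 to 34.7 CPM in B6 mice (median 31.0), 30.4 to 33.2 CPM in congenic mice 2 to 8 (median 31.3) and 42.1 CPM in mouse 1. The 2 groups were nearly the same apart from mouse 1, with a log2 fold change of -0.00 (SE 0.04, edgeR FDR 0.972). *Ifit2*, which binds viral RNA, was at 9.85 to 10.9 CPM (median 10.4) and 9.30 to 11.4 CPM (median 10.6), with 17.7 CPM in mouse 1. Here the B6 range lay inside the congenic range and the log2 fold change without mouse 1 was 0.00 (SE 0.05). *Samd9l*, an antiviral translation repressor, was at 2.72 to 5.67 CPM (median 4.97) and 4.54 to 6.20 CPM (median 5.05), and mouse 1, at 6.11 CPM, was under congenic mouse 6.

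*Eif2ak2* (PKR), the kinase that halts translation on double-stranded RNA, was lowest of all 16 mice in mouse 1, which 27.7% of genes tested were (1 of 49 members). It was at 8.09 to 13 CPM in B6 mice (median 10.4), 10.5 to 13.1 CPM in congenic mice 2 to 8 (median 11.4) and 7.21 CPM in mouse 1, 0.651 times the median of the others. The 15 other mice overlapped between genotypes, and the log2 fold change without mouse 1 was 0.09 (SE 0.09, edgeR FDR 0.633). Its promoter is shown since it holds both motifs in a member that was low there. It is chr17:78882523-78882822 on the minus strand, with the gamma-activated site first at -178 and the core first at 18 from the start.
Eif2ak2: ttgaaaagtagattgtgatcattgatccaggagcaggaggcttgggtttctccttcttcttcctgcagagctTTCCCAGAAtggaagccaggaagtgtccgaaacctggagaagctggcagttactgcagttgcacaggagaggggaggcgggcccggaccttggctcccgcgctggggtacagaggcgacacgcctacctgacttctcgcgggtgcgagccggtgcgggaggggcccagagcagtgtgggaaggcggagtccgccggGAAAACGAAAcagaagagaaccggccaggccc

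The remaining effectors were all highest in mouse 1. They were *Ifit1* (4.67 times the median of the others), *Ifit3* (4.19 times), *Bst2*, which tethers budding virus (4.09 times), *Rsad2* or viperin (4.04 times), *Oasl2* (3.63 times), *Ifitm3*, which blocks viral fusion (3.55 times), and *Oas1a* (2.77 times). Between the genotypes without mouse 1 none of the 11 effectors was at an unadjusted p under 0.05 in edgeR, and their log2 fold changes ran from -0.02 (*Rsad2*) to 0.27 (*Oasl2*). Values of *Ifit* genes and of *Oas1a* are uncertain because reads that also align to close copies were not counted.

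ISG15 is a ubiquitin-like protein that is joined to other proteins, and *Usp18* removes it while also damping the receptor. *Isg15* was at 2.10 to 3.36 CPM in B6 mice (median 2.64), 2.60 to 3.65 CPM in congenic mice 2 to 8 (median 3.30) and 6.90 CPM in mouse 1. Leaving mouse 1 aside, the groups overlapped with 3 congenic mice above every B6 mouse, and the log2 fold change was 0.25 (SE 0.11, edgeR unadjusted p = 0.0309, FDR 0.338). *Usp18* was at 0.848 to 1.64 CPM (median 1.37) and 1.04 to 1.53 CPM (median 1.33), with 4.11 CPM in mouse 1. The congenic range lay inside the B6 range, with a log2 fold change of 0.03. *Herc6*, the main ISG15 ligase of the mouse, went the other way: it was at 7.40 to 10.7 CPM in B6 mice (median 9.69) and 6.34 to 10.1 CPM in congenic mice 2 to 8 (median 7.60), with 10.2 CPM in mouse 1. Only 2 of 7 congenic mice were above the B6 median, and mouse 1 was near the top of the B6 mice. The log2 fold change without mouse 1 was -0.22 (SE 0.10, edgeR unadjusted p = 0.0416, FDR 0.353).

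The PARP and DTX3L group holds ADP-ribosyltransferases and the ubiquitin ligase DTX3L, the partner of PARP9. *Parp12* was at 8.68 to 12.2 CPM in B6 mice (median 10.1), 10.2 to 12 CPM in congenic mice 2 to 8 (median 11.1) and 18.7 CPM in mouse 1. *Parp14* was at 5.02 to 7.56 CPM (median 6.39), 6.27 to 8.16 CPM (median 7.06) and 10.8 CPM, in the same order. Both were alike in that mouse 1 was alone on top while the rest overlapped. *Dtx3l* was at 4.20 to 6.14 CPM (median 5.32) and 4.69 to 6.04 CPM (median 5.54), with 8.40 CPM in mouse 1, and *Parp9* was 1.81 times the median of the others there. *Parp9* and *Dtx3l* share 458 bases of exon on opposite strands, and in union mode reads there count for neither gene. Without mouse 1 the 4 genes had log2 fold changes between 0.09 and 0.18, the largest for *Parp14* (SE 0.09, edgeR unadjusted p = 0.0589, FDR 0.385).

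The interferon-inducible GTPases, which assemble on the vacuoles of intracellular pathogens, stood farthest from the other mice in mouse 1: all 9 were highest there, by 4.11 to 22 times. *Gbp2*, a guanylate-binding protein and the member with the largest ratio, was at 2.90 to 4.88 CPM in B6 mice (median 3.93), 3.78 to 5.44 CPM in congenic mice 2 to 8 (median 5.07) and 97.4 CPM in mouse 1 (3106 counts). In mouse 1 both lane files gave nearly the same level, 96.3 and 98.4 CPM. Among the other mice 5 of 7 congenic mice were above every B6 mouse, and congenic mouse 4 was the lowest of the 7. The log2 fold change was 2.11 (SE 0.67) with all 16 mice and 0.36 (SE 0.11) without mouse 1 (edgeR unadjusted p = 0.00359, FDR 0.235), so it did not pass the correction. Its promoter, chr3:142620413-142620712 on the plus strand, holds 1 core, in capitals, with the first letter at -59 from the start.
Gbp2: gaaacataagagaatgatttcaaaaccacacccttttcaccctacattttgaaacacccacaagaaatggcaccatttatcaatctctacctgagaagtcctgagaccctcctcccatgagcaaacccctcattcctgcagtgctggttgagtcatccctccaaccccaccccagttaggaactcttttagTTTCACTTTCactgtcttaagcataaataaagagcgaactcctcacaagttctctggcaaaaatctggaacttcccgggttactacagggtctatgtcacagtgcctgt

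*Gbp3* was at 5.44 to 8.16 CPM in B6 mice (median 6.94), 6.55 to 9.12 CPM in congenic mice 2 to 8 (median 7.94) and 43.7 CPM in mouse 1. *Gbp7* was at 6.71 to 11.2 CPM (median 9.45), 10 to 12.4 CPM (median 10.8) and 41.3 CPM. For *Gbp7* all 7 congenic mice were above the B6 median and 1 was above every B6 mouse, with a log2 fold change of 0.24 without mouse 1 (SE 0.09, edgeR unadjusted p = 0.0178, FDR 0.305). *Gbp6* was 10.1 times the median of the others in mouse 1 and had a log2 fold change of 0.36 without it (SE 0.14, edgeR unadjusted p = 0.0192, FDR 0.307). *Iigp1*, an effector GTPase that binds vacuole membranes directly, was at 1.70 to 2.78 CPM in B6 mice (median 2.34), 1.80 to 3.65 CPM in congenic mice 2 to 8 (median 2.77) and 45.2 CPM in mouse 1, 17.3 times the median. Mouse 1 was again far apart and the other mice overlapped. *Irgm1*, a regulatory GTPase on the same chromosome as the segment but outside it, was 5.65 times the median in mouse 1, with a log2 fold change of 0.06 without it. Values of the *Gbp* and IRG genes are uncertain, as reads shared with paralogs were not counted.

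The other 3 members of the congenic segment are GTPases that lie next to each other: *Gm12250* (chr11:58183843-58190198), *Igtp* (chr11:58199556-58207592) and *Irgm2* (chr11:58214977-58222783). *Gm12250* (IRGB10), which helps to break open bacteria and their vacuoles, was at 0.180 to 0.637 CPM in B6 mice (median 0.429), 0.525 to 0.941 CPM in congenic mice 2 to 8 (median 0.693) and 9.63 CPM in mouse 1. All 7 other congenic mice were above the B6 median and 5 were above every B6 mouse, at 5 to 28 counts per mouse. The log2 fold change was 2.19 (SE 0.66) with all 16 mice and 0.86 (SE 0.24) without mouse 1 (edgeR unadjusted p = 0.00233, FDR 0.227). The exact two-sided permutation test of this 1 gene gave p = 0.00466 without mouse 1. It was 0.75 within lanes 5 and 6 and 0.89 within lanes 7 and 8 as a log2 fold change. Its promoter holds 2 cores and 1 gamma-activated site between them, all in capitals, with first letters at -91, -46 and -61, in chr11:58183593-58183892 on the plus strand.
Gm12250: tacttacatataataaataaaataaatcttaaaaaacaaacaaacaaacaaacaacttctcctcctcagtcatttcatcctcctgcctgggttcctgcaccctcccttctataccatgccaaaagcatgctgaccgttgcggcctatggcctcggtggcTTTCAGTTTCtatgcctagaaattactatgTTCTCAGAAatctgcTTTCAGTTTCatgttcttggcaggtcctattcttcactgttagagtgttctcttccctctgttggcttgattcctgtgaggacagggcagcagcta

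*Igtp* (IRGM3), a regulatory GTPase, was at 2.61 to 4.51 CPM in B6 mice (median 3.66), 2.74 to 4.18 CPM in congenic mice 2 to 8 (median 3.34) and 54.0 CPM in mouse 1, 16.1 times the median of the others. *Irgm2* was at 4.31 to 6.98 CPM (median 5.66), 4.89 to 6.07 CPM (median 5.41) and 36.8 CPM, 6.61 times. In both, mouse 1 was far above while the congenic range lay inside the B6 range. Their log2 fold changes were 1.45 (SE 0.60) and 0.73 (SE 0.39) with all 16 mice, and -0.05 (SE 0.13, edgeR FDR 0.879) and -0.06 (SE 0.08, edgeR FDR 0.763) without mouse 1. Exact two-sided permutation tests without mouse 1 gave p = 0.686 and p = 0.536. The windows of these neighbouring paralogs are shown together since they hold the same pair of motifs in the same order, gamma-activated site then core. With the windows shifted by 30 bases, 184 of 270 letters were equal (68.1%), with a longest shared run of 61 letters. They are chr11:58199306-58199605 and chr11:58214727-58215026, both on the plus strand.
Igtp: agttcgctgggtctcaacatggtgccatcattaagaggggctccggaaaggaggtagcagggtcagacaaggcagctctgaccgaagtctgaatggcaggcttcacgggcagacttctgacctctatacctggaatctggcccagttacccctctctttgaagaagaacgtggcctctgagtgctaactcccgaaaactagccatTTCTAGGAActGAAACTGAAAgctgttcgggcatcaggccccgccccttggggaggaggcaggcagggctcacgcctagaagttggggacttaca
Irgm2: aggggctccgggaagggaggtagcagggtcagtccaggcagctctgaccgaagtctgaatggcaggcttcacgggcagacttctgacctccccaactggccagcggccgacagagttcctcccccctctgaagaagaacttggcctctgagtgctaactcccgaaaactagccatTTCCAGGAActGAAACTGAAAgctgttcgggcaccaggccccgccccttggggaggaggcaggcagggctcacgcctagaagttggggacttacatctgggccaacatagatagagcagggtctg

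**Figure D5:**
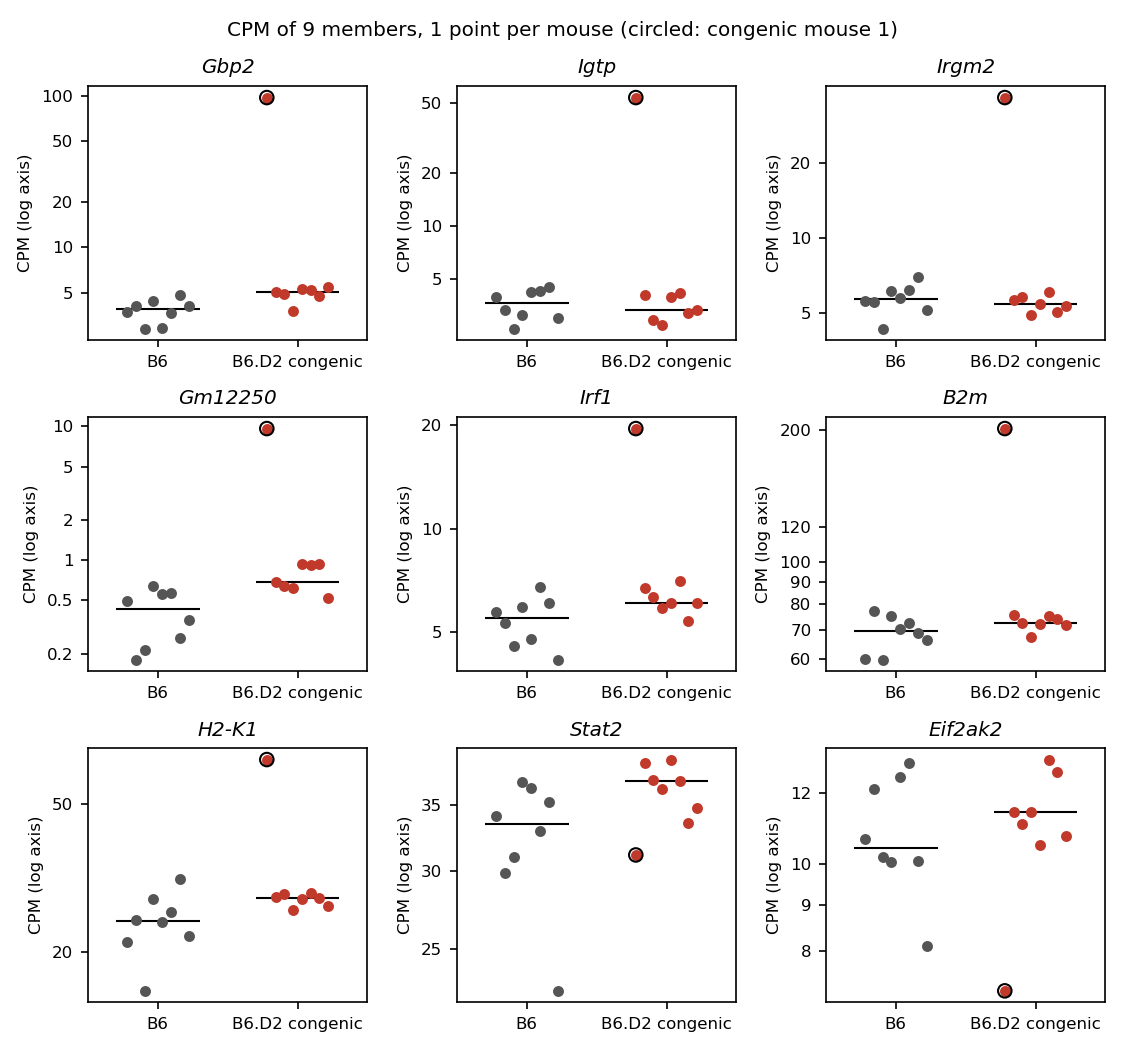
CPM (vertical axis, log scale) of 9 members in the 8 B6 and 8 B6.D2 congenic mice (horizontal axis), 1 point per mouse. Bars are the median of the B6 mice and of congenic mice 2 to 8, and the circled point is congenic mouse 1, at 97.4 CPM for *Gbp2*, 54.0 CPM for *Igtp* and, below all other mice, 7.21 CPM for *Eif2ak2*.

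The antigen presentation members make peptides, carry them into the endoplasmic reticulum and load them on MHC class I. *B2m*, the light chain of class I, was at 59.7 to 77.3 CPM in B6 mice (median 69.5), 67.4 to 75.6 CPM in congenic mice 2 to 8 (median 72.3) and 202 CPM in mouse 1. The congenic mice 2 to 8 lay inside the B6 range, and the log2 fold change was 0.37 (SE 0.19) with all 16 mice and 0.08 (SE 0.05) without mouse 1 (edgeR unadjusted p = 0.148, FDR 0.496). As the most abundant member its promoter is shown, chr2:122147437-122147736 on the plus strand, with 1 core in capitals at -139.
B2m: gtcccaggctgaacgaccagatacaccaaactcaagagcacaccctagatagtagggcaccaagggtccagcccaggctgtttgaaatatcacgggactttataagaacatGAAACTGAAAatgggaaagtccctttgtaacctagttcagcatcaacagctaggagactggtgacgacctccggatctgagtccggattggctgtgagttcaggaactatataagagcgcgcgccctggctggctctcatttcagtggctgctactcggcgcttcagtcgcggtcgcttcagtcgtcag

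*H2-K1*, a class I heavy chain, was at 15.7 to 31.4 CPM in B6 mice (median 24.2), 25.9 to 28.8 CPM in congenic mice 2 to 8 (median 27.9) and 66.0 CPM in mouse 1. All 7 congenic mice were above the B6 median but none was above every B6 mouse, and the log2 fold change without mouse 1 was 0.21 (SE 0.10, edgeR unadjusted p = 0.0485, FDR 0.369). *H2-D1*, another heavy chain, was at 9.01 to 13.7 CPM (median 11), 11.1 to 13 CPM (median 12.2) and 33.8 CPM, with a log2 fold change of 0.07 without mouse 1. The immunoproteasome subunits *Psmb9* and *Psmb8* were 7.39 and 4.93 times the median of the others in mouse 1, and the peptide transporter subunit *Tap1* 5.34 times. All 3 overlapped between the genotypes otherwise, with log2 fold changes of 0.19, 0.22 and 0.25 and none at an unadjusted p under 0.05. *Psmb9* and *Tap1* share 212 bases of exon on opposite strands, and the H2 genes have close copies, so these values are uncertain.

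Among the other induced genes, *Ifi27l1*, a mitochondrial protein, was at 17.2 to 23.9 CPM in B6 mice (median 18.6), 20.1 to 23.4 CPM in congenic mice 2 to 8 (median 21.7) and 35.3 CPM in mouse 1. All 7 congenic mice were above the B6 median, and the log2 fold change without mouse 1 was 0.14 (SE 0.07, edgeR unadjusted p = 0.0515, FDR 0.377). *Lgals3bp*, a secreted glycoprotein, was at 11 to 17.4 CPM (median 14.3), 14.6 to 18.5 CPM (median 16.0) and 25.8 CPM, with a log2 fold change without mouse 1 of 0.23 (SE 0.09, edgeR unadjusted p = 0.0234, FDR 0.318). *Xaf1*, which promotes cell death, was at 4.35 to 6.98 CPM (median 5.28), 4.96 to 8.00 CPM (median 6.82) and 10.7 CPM, with 0.33 (SE 0.11, edgeR unadjusted p = 0.00584, FDR 0.248). The genotypes overlapped in both, with 1 congenic mouse above every B6 mouse for *Lgals3bp* and 3 for *Xaf1*.

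*Ifi44* had a log2 fold change of 0.36 without mouse 1 (SE 0.12, edgeR unadjusted p = 0.00725, FDR 0.264). It was 3.77 times the median of the others in mouse 1, and among the other mice 4 congenic mice were above every B6 mouse. *Cxcl10*, a chemokine that attracts T cells, did not pass the filter on low counts and was not tested. It was at 0.0397 to 0.295 CPM in B6 mice (median 0.123), 0.0401 to 0.451 CPM in congenic mice 2 to 8 (median 0.255) and 3.01 CPM in mouse 1, that is 1 to 13 counts against 96. *Rtp4*, *Ifi35* and *Trim30a* were 3.25, 2.44 and 2.17 times the median in mouse 1. They had log2 fold changes of 0.05, 0.04 and 0.12 without it, with overlapping genotypes. Of the exon bases of *Ifi35*, 16.8% are shared with the antisense gene *Gm11626*, so its counts are uncertain.

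The pathway around the members was followed in 7 lists with 164 genes counted, of which 115 were tested. Without mouse 1, 1 of 115 passed an FDR of 5% in edgeR, *Tnip1*, where 0.0256% of genes tested did. At an unadjusted p under 0.05, 22 were higher and 2 lower (5.82% and 7.54% of genes tested), with a median log2 fold change of 0.08. *Tnip1*, an inhibitor of inflammatory NF-kappaB signalling that lies in the congenic segment, was at 23 to 28.1 CPM in B6 mice (median 25.5) and 30.6 to 36.5 CPM in congenic mice 2 to 8 (median 33.1). All 7 of these congenic mice were above every B6 mouse, as in 0.0576% of genes tested, and *Tnip1* rose by a log2 fold change of 0.40 (SE 0.05, edgeR FDR 0.00317). In mouse 1 it was at 31.8 CPM, within the other congenic mice, so *Tnip1* did not follow the members there. In DESeq2, which called 82 of all genes, *Tapbp*, which loads class I, passed as well (edgeR FDR 0.204).

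The ligands were the least measured list. The 20 interferon ligand genes had 23 counts over all mice and none in mouse 1, with at most 2 counts for any gene and mouse, so their RNA was not detectable at this depth in mouse 1. For receptors and kinases (11 tested), 4 were highest in mouse 1 (median log2 ratio 0.15), where 31.3% of genes tested were. Without mouse 1, 1 was higher at an unadjusted p under 0.05, *Tyk2*, and 1 lower, *Ifngr2*, a chain of the interferon gamma receptor, with a log2 fold change of -0.20 (SE 0.06, edgeR FDR 0.256). For the negative regulators (11 tested) 3 were highest in mouse 1 and for upstream sensing 4 of 16, with median log2 ratios of 0.03 and 0.00. These counts are near the share over all genes.

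Most of the other interferon-stimulated genes also stood high in mouse 1, which was highest for 36 of 55 tested (median log2 ratio 0.57). The same held for 15 of 16 other antigen presentation genes (0.78). The MHC class II genes were mixed: 5 of 10 were highest (0.47), while *Ciita* (1.10 against at least 1.74 CPM) and *H2-DMb2* (0.125 against at least 0.244 CPM) were below all other mice. Of all genes tested 31.3% were highest there and 27.7% lowest. Without mouse 1, 12 of 55 were higher and 1 lower (*Ly6e*) at an unadjusted p under 0.05, 5 of 16 and 1 of 10 (*Cd74*) were higher, where 5.82% of genes tested were higher and 7.54% lower, and the median log2 fold changes were 0.12, -0.01 and 0.08. Of the upstream sensing genes 2 were higher, *Irf3* and *Aim2*. The lists were chosen with earlier results of these data known, so none of these counts is independent evidence of a direction.

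Outside the members, the genes most like them in mouse 1 were those with the largest ratio of mouse 1 to the highest of the other 15 mice. The first 5 were *Gbp4* (94.4 CPM against at most 7.98 in the others), *Gbp5* (59.7 against 6.21 CPM), *Cd274* (28.9 against 4.05 CPM), *Ifi47* (15.3 against 2.19 CPM) and *AW112010* (8.53 against 2.08 CPM). *Cd274* encodes the checkpoint ligand PD-L1. The rest were *Nlrc5*, *Ly6a*, *Ly6c1*, *Tnfsf10*, *Gbp9*, *H2-Aa*, *Mt2*, *Srgn*, *Cd74* and *Trim34a*, and 8 of the 15 were in the pathway lists. Genes far below all other mice were *4932418E24Rik* (0.564 against at least 8.19 CPM), *Zbed6* (1.38 against 17.1 CPM), *Nos1* (1.88 against 22.5 CPM) and *E330009J07Rik* (1.29 against 15.2 CPM). None of these genes passed an FDR of 5% between the genotypes without mouse 1.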

How the data were processed

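The labels list 32 lane files of striatal RNA, a pair for each of 16 mice. Of these 31 were analysed, since the lane 7 file of B6 mouse 7 was not among the files here. According to the study's methods and the submitters' notes, the authors aligned the reads to mm10 with TopHat2 2.0.0 and bowtie2 2.2.2 and counted them per gene with HTSeq 0.6.1p1 in union mode, without strand. The deposited count values are raw read counts per gene and lane file. 5 special entries per file were left out of library sizes and tests, and 61.4% to 68.3% of reads were on genes. Tables of the authors' own comparison hold fold changes, p-values and FDRs from an edgeR model with home cage and were not used here.

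Lane files were summed per mouse after a chi-square comparison of each pair (0.997 to 1.05 per degree of freedom). The filter on low counts was filterByExpr and the scaling TMM, and genotypes were compared with glmQLFit and glmQLFTest in edgeR 4.0.16 under R 4.3.3. FDRs are Benjamini-Hochberg values over the whole table of genes that passed the filter. SE is the absolute log2 fold change over the root of the F statistic. DESeq2 1.42.0 was an alternative. The steps were tested on simulated data. Log2 CPM of single genes, with a prior count of 0.5, were compared by exact permutation of mice. Python 3.11.15, numpy 2.4.6, pandas 2.3.3, scipy 1.17.1 and matplotlib 3.10.9 were used. Exon lengths and overlaps came from GENCODE vM1 (mm9), positions from RefSeq (GRCm38.p6). Values by group are given for the segment members, the 3 most abundant of each role and the 5 with the largest and the 5 with the smallest ratio in mouse 1. Any member or pathway gene past an FDR of 5% was named too. Outside the members, the 15 genes tested with a mean CPM of at least 1 and the largest log2 ratio of mouse 1 to the highest of the other mice were named, and the 5 farthest below the lowest. Of the genes these rules pick or list, 2 are not reported here. Other genes were named after their values were seen. *Xist* was left out of the nuclear-retained list because it differs by sex. By sex-linked RNA, 1 library did not match the numbers by sex in the study's methods. Members and lists were chosen with earlier results of these data known.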

Additional observations from a re-analysis of the deposited data

Results flagged for a closer look

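A value is listed where the highest or lowest mouse of a genotype lay far from its nearest neighbour, relative to the range of the group. Some listings are expected by chance alone, since 126 groups were looked at. Mouse 1 of the B6.D2 congenic group chose the members, so its place among the members is a given.

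Congenic mouse 1 was far above the other congenic mice for the GTPases *Gbp2* (97.4 CPM), *Igtp* (54.0), *Iigp1* (45.2), *Gbp3* (43.7), *Gbp7* (41.3), *Irgm2* (36.8) and *Gm12250* (9.63 CPM). The same held for antigen presentation, with *B2m* at 202, *H2-K1* at 66.0 and *H2-D1* at 33.8 CPM. It also held for *Cmpk2* (42.1 CPM), *Ifi27l1* (35.3), *Lgals3bp* (25.8), *Irf1* (19.5), *Parp12* (18.7), *Ifit2* (17.7), *Parp14* (10.8), *Dtx3l* (8.40), *Isg15* (6.90), *Usp18* (4.11) and *Cxcl10* (3.01 CPM). *Eif2ak2* in that mouse was far below the others, at 7.21 CPM. Its summed microglia (993 CPM), meningeal (415 CPM) and blood (58.7 CPM) lists were far above, and so was its share of reads with more than 1 alignment (27.3%), while its share of reads outside genes (10.2%) and its sum of nuclear-retained RNAs (8628 CPM) were far below.

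B6 mouse 8 was far below the other B6 mice for *Herc6* (7.40 CPM), the sum of nuclear-retained RNAs (4870 CPM) and reads outside genes (11.3%), and far above them for reads on genes (68.3%). B6 mouse 2 was far below for the summed oligodendrocyte list (9577 CPM). With congenic mouse 1 left out, congenic mouse 6 was far above the other 6 for *Dhx58* (2.65 CPM) and *Gbp7* (12.4 CPM), and congenic mouse 4 far below for *Gbp2* (3.78 CPM).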

How the results depend on the processing

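The median log2 fold change of the members without congenic mouse 1 (0.14) was 0.10 to 0.18 over 26 settings. Each moved it by less than the SD between mice of the members' median ratio (0.17). That limit is wider than the median itself, so a fall to 0 would also have stayed within it. The median log2 ratio of mouse 1 (1.57) was 1.51 to 1.58 under 5 alternatives. Of the log2 fold changes followed, only that of *Tnip1* had been called at an FDR of 5%, and it stayed above 0 in every setting. No member had been called, and some changed sign between settings without mouse 1. *Samd9l* went down to -0.05 and *Usp18* to -0.08, whereas *Gm12250* stayed at 0.74 or more.

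Counts of genes at an FDR of 5% depended on the test and the mice. With all 16 mice (1 gene), DESeq2 called 31, edgeR's likelihood ratio test 20 and a fit with lane pair as a covariate 2, and mice of lanes 5 and 6 or of lanes 7 and 8 alone gave 0 and 0. Leaving out 1 mouse gave 1 to 4, with 4 without congenic mouse 1 and 3 without congenic mouse 6. Without mouse 1 (4 genes), DESeq2 called 82, the likelihood ratio test 81, and the lane groups 2 and 0. Leaving out 1 more mouse gave 2 to 53, with 53 without congenic mouse 2, 8 without congenic mouse 6, 7 without B6 mouse 8 and 2 without any of B6 mice 1, 2, 3 and 6 or congenic mice 4, 7 and 8. The cause was not tested.

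Members higher at an unadjusted p under 0.05 without mouse 1 (11, beside 5.82% of genes tested) were 3 in lanes 5 and 6 (2.14%), 7 in lanes 7 and 8 (4.35%), 7 from 1 lane file per mouse (5.48%), and 6 to 18 with 1 mouse left out: 18 without B6 mouse 4 (7.65%), 7 without B6 mouse 3 (4.29%), 6 without congenic mouse 6 (4.43%). Pathway genes at an FDR of 5% (1) were 2 with DESeq2 and 0 within either lane group. Segment members under 0.05 in the exact permutation test (1) were 2 with all 16 mice. Lane groups have fewer mice, and otherwise the cause was not tested.

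A fit with mouse number as a block called 0 genes with all 16 mice and 1 without mouse 1. Mice of the same number were not clearly alike, as 3 of 8 same-number correlations were over 0.1 (-0.12 to 0.36) and 2 of 8 B6 mice correlated best with their own number. A pairing by litter or home cage could not be checked, since the labels give neither.

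Low counts limit *Zbp1*, *Gm12250*, *Oas1a* and *Cxcl10* in mice other than mouse 1 and also weigh on *Ifi44*, *Gbp6*, *Usp18* and *Psmb9*. Their part beside the spread between mice was not tested. Home cage, which the study's model held, could not be fitted. An alternative chosen after seeing the data, sex from sex-linked RNA as a covariate, called 1 gene at an FDR of 5% with all 16 mice and 5 without mouse 1. Without mouse 1, no member was among them, 15 members were higher at an unadjusted p under 0.05 (5.93% of genes), and the median log2 fold change was 0.15.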
